A study of Homo sapiens with 12 samples.

Results

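The GIMAP genes encode GTPases of the immunity-associated protein family and lie side by side on the long arm of human chromosome 7. The 7 protein-coding members GIMAP1, GIMAP2, GIMAP4, GIMAP5, GIMAP6, GIMAP7 and GIMAP8 were taken by symbol from a table of 58051 genes. The family was chosen on earlier results of these same counts, and the contrast that led to the choice was not stated, so the members' levels and differences below are a description. Of the 7 members, 4 passed the filter on low counts, namely GIMAP8, GIMAP6, GIMAP2 and GIMAP1.

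RNA was sequenced from MV4-11 cells, an established human acute myeloid leukaemia line in which both KMT2A and FLT3 are altered. Cells were exposed for 6 h to 200 nM of YKL-06-102, BSJ-03-123 or Palbociclib, or to the vehicle DMSO at 0.1%, and 3 libraries were made for each of the 4 groups. Palbociclib is an inhibitor of the cell-cycle kinases CDK4 and CDK6, and the series describes YKL-06-102 and BSJ-03-123 as phthalimide conjugates directed at CDK6. All libraries come from a single cell line at a single dose and time, and the labels do not say whether replicates were separate cultures, so the spread between them may be technical.

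GIMAP proteins bind GTP through a domain related to the plant protein AIG1, and several of them sit on intracellular membranes by a C-terminal anchor. They are best known from lymphocytes, where loss of GIMAP5 in rats and mice shortens the life of T cells and loss of GIMAP1 in mice depletes mature T and B cells.

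Library totals ranged from 18764307 to 25539858 counts, and 14214 genes passed the filter. DMSO replicate 2 stood somewhat apart, since the chi-square of its counts, divided by the degrees of freedom (1 is sampling noise alone), came to 5.87 and 8.91 when set against replicates 1 and 3. All remaining replicate pairs lay between 1.72 and 2.94. For the GIMAP genes and the neighbours named below, differences against DMSO are therefore also given without it where that moved a call. CDK6 transcripts, the target named by the series, were slightly higher with every compound, by 0.17 ± 0.035 (SE) on the log2 scale with YKL-06-102, 0.20 ± 0.035 with BSJ-03-123 and 0.14 ± 0.035 with Palbociclib. CDK6 protein was not measured.

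On GRCh38 with the GENCODE 29 annotation, the members spanned 299.4 kb of chromosome 7, from position 150450630 to position 150750033. In this order along the chromosome, GIMAP8 (ENSG00000171115) runs from 150450630 to 150479392, GIMAP7 (ENSG00000179144) from 150514830 to 150521073 and GIMAP4 (ENSG00000133574) from 150567277 to 150573955. GIMAP6 (ENSG00000133561) runs from 150625375 to 150632648 and is the only member of the 7 on the minus strand. GIMAP2 (ENSG00000106560) follows from 150685697 to 150693641, GIMAP1 (ENSG00000213203) from 150716557 to 150724284 and GIMAP5 (ENSG00000196329) from 150722253 to 150750033. GIMAP1 and GIMAP5 therefore overlap, and a read-through gene, GIMAP1-GIMAP5 (ENSG00000281887), is annotated from 150716668 to 150743646 across both.

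The promoters of the 4 expressed members are shown because GIMAP1 differed from its neighbours in direction with YKL-06-102. The letters are the 250 bases before the RefSeq start of each gene on GRCh38.p14, read 5′ to 3′ on the gene's own strand, at chr7:150450380-150450629 (plus), chr7:150632386-150632635 (minus), chr7:150685456-150685705 (plus) and chr7:150716363-150716612 (plus). Capitals mark matches to the motifs searched.
GIMAP8: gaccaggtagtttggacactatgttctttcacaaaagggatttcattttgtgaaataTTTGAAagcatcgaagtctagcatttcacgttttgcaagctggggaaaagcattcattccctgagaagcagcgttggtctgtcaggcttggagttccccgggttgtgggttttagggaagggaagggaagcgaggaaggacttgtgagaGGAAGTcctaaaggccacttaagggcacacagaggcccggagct
GIMAP6: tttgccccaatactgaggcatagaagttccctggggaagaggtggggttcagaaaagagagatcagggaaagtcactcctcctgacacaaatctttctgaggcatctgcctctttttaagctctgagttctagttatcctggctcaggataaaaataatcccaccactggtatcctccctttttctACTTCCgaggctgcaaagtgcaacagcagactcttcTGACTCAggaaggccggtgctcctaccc
GIMAP2: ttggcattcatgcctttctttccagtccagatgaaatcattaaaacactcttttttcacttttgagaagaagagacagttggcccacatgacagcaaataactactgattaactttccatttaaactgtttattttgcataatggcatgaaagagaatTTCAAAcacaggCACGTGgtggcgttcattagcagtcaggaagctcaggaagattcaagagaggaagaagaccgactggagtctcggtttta
GIMAP1: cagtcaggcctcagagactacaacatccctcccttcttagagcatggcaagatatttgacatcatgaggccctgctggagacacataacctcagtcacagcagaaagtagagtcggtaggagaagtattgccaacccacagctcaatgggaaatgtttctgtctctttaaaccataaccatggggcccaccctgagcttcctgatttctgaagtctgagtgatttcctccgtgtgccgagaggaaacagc

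All 7 members had a RefSeq promoter window of 300 bases (250 before the start and 50 from it on), and 9 short motifs were searched on both strands of each. The ETS core GGAAGT matched in the GIMAP8 window 44 bases before the start, and its reverse complement matched in the GIMAP6 window 64 bases before the start and again at the start itself. This ETS core occurred in 22.8% of all 35116 windows of the same length. The CHR element TTTGAA, found in 15.2% of all windows, matched in GIMAP8 and, in reverse, in GIMAP2. The E-box CACGTG, found in 7.26%, matched in GIMAP2 80 bases before the start, and the AP-1 motif TGANTCA, found in 7.71%, matched in GIMAP6. The windows of the members with few or no counts held the ETS core (GIMAP4 and GIMAP5), the E-box (GIMAP4) and the TATA box TATAAA in reverse (GIMAP7, 11.5% of all windows).

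None of the 9 motifs matched in the GIMAP1 window, which RefSeq gives to the read-through gene as well. The motifs with no match in any member were the RUNX core TGTGGT, present in 13.1% of all windows, the forkhead motif GTAAACA, in 3.42%, the STAT palindrome TTCNNNGAA, in 7.66%, and the CRE motif TGACGTCA, in 1.85%. No matches overlapped. GC content was 49.7% for GIMAP8, 50% for GIMAP6, 40.3% for GIMAP2 and 50.7% for GIMAP1, against a median of 58.7% over all windows. The 4 windows held 8, 3, 4 and 4 CG pairs in that order of genes, against a median of 14. A match or its absence describes these letters only.

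Expression was confined, at this depth, to part of the cluster. GIMAP7, whose protein is known to stimulate GTP hydrolysis by GIMAP2, had no count in any of the 12 libraries, and GIMAP4, known from T cells, had 1 count in a single YKL-06-102 library. A count of 0 allows up to 3 counts in a library, which is 0.121 to 0.163 CPM here (counts scaled to the size of the library). GIMAP5, a lysosomal survival factor of lymphocytes, had 4, 7 and 5 counts with YKL-06-102, 4, 1 and 0 with BSJ-03-123, 3, 0 and 6 with Palbociclib and 1, 2 and 2 with DMSO. These are too few to compare, and GIMAP5 did not pass the filter.

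Counting at GIMAP1 and GIMAP5 was limited by the annotation. Of the 4846 exon bases of GIMAP1, 549 are shared on the same strand, 431 with the read-through gene and 118 with GIMAP5. Of the 6031 exon bases of GIMAP5, 2133 are shared. All 2148 exon bases of GIMAP1-GIMAP5 belong to other genes too, and its count of 0 in every library is therefore no measure of read-through transcripts. The counts of GIMAP1 rest on its 4297 unshared bases if reads on shared bases were left out, and how such reads were treated is not given in the sources used here. The other members share no exon bases.

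Per length, GIMAP2 was the most abundant member and GIMAP1 the least of the 4 that passed the filter, in every group. Mean levels of GIMAP2, a protein of lipid droplets, were 7.61 RPKM (CPM per kilobase of unshared exon) with YKL-06-102, 7.76 with BSJ-03-123, 8.15 with Palbociclib and 6.74 with DMSO. GIMAP6, which is known to bind the autophagy protein GABARAPL2, had mean levels of 5.13, 4.86 and 5.1 RPKM with the 3 compounds in the same order and 4.19 with DMSO. GIMAP8, which carries several GTP-binding domains, had 3.45, 4 and 4.29 RPKM with the compounds and 3.09 with DMSO. GIMAP1 had 0.468, 1.48 and 1.51 RPKM with the compounds and 0.982 with DMSO. Among the 14163 tested genes with a length, the DMSO levels stood at the 57.8th percentile for GIMAP2, the 47.3rd for GIMAP6, the 41.5th for GIMAP8 and the 21.6th for GIMAP1, so that 3 members lay near the middle of expressed genes. For these percentiles CPM was divided by all exon bases of each gene, shared or not, unlike the RPKM above.

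GIMAP1, needed for mature lymphocytes in mice, had 2.01, 2.18 and 1.85 CPM with YKL-06-102, 5.17, 7.27 and 6.65 with BSJ-03-123, 6.62, 6.54 and 6.31 with Palbociclib, and 4.61, 4.36 and 3.69 with DMSO. Every YKL-06-102 library lay below every DMSO library, and every library of the other compounds lay above every DMSO library. Separation of groups of 3 libraries, here and below, is not particular to the members. The flanking gene REPIN1 was separated from DMSO with YKL-06-102 without passing the threshold. The share of all tested genes so separated is not given here. The GIMAP1 values rest on 49, 51 and 45 counts with YKL-06-102, 103, 152 and 141 with BSJ-03-123, 163, 148 and 131 with Palbociclib, and 88, 108 and 68 with DMSO. The smallest of these counts, 45, exceeds the filter's minimum of 10, so no group alone carried GIMAP1 through the filter.

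Group means of GIMAP1 were 2.01 ± 0.161 CPM with YKL-06-102, 6.36 ± 1.08 with BSJ-03-123, 6.49 ± 0.159 with Palbociclib and 4.22 ± 0.474 with DMSO (SD, n = 3 each). Relative to DMSO, the level with YKL-06-102 was 2.1-fold lower, a log2 difference of -1.07 ± 0.16 (SE). With BSJ-03-123 it was 1.51-fold higher (0.59 ± 0.13) and with Palbociclib 1.53-fold higher (0.62 ± 0.13). By the size of its log2 difference, GIMAP1 was number 120 from the bottom among 14214 genes for YKL-06-102 against DMSO. It kept its direction and its side of the threshold against DMSO in every alternative run, with values of -1.03, 0.62 and 0.64 for the 3 compounds without DMSO replicate 2.

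**Figure D1:**
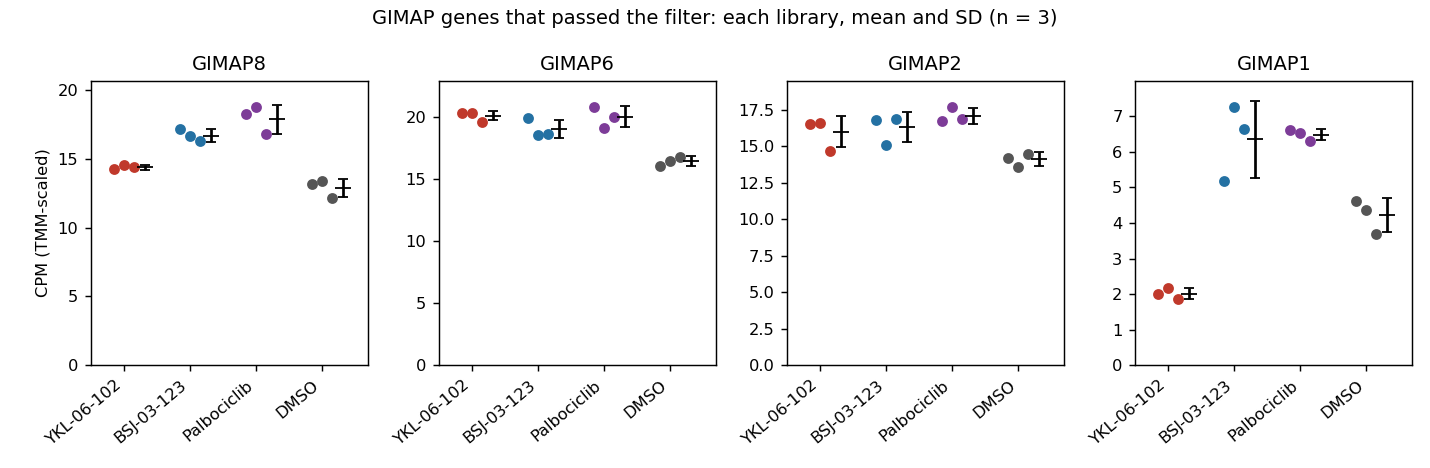
Level of each GIMAP gene that passed the filter, in CPM after TMM scaling (vertical axis, linear, from 0), in the 3 libraries of each group (points), with the mean and SD beside them. GIMAP1 lies near 2 CPM with YKL-06-102, below the DMSO libraries, while GIMAP8, GIMAP6 and GIMAP2 lie above DMSO with every compound.

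GIMAP8 had 14.3, 14.6 and 14.4 CPM with YKL-06-102, 17.2, 16.7 and 16.3 with BSJ-03-123, 18.3, 18.8 and 16.8 with Palbociclib, and 13.2, 13.4 and 12.2 with DMSO. Every compound library lay above the DMSO libraries, and the YKL-06-102 libraries were the closest to them. The log2 difference from DMSO was 0.16 ± 0.070 with YKL-06-102, which did not pass the threshold, 0.37 ± 0.070 with BSJ-03-123 and 0.47 ± 0.068 with Palbociclib. The YKL-06-102 value passed at 0.19 when counts were scaled by library totals and at 0.20 without DMSO replicate 2.

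GIMAP6 had 20.3, 20.3 and 19.6 CPM with YKL-06-102, 19.9, 18.5 and 18.6 with BSJ-03-123, 20.8, 19.1 and 20 with Palbociclib, and 16, 16.4 and 16.8 with DMSO. The 3 compounds overlapped one another and none overlapped DMSO. The log2 difference from DMSO was 0.29 ± 0.061 with YKL-06-102, 0.21 ± 0.063 with BSJ-03-123 and 0.29 ± 0.062 with Palbociclib, so the direction that GIMAP1 took with YKL-06-102 was not shared by GIMAP6. The BSJ-03-123 call was lost without DMSO replicate 1 (0.19) and without BSJ-03-123 replicate 1 (0.18).

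GIMAP2 had 16.5, 16.6 and 14.7 CPM with YKL-06-102, 16.8, 15.1 and 16.9 with BSJ-03-123, 16.7, 17.7 and 16.9 with Palbociclib, and 14.2, 13.6 and 14.5 with DMSO. All compound libraries again lay above all DMSO libraries, although YKL-06-102 replicate 3 was close to them. The log2 difference from DMSO was 0.18 ± 0.071 with YKL-06-102, 0.21 ± 0.072 with BSJ-03-123 and 0.28 ± 0.071 with Palbociclib. Only the Palbociclib value stayed past the threshold whichever library was left out. The YKL-06-102 call was lost without any 1 of the DMSO libraries or of YKL-06-102 replicates 1 and 2 (0.17 to 0.20), and the BSJ-03-123 call without DMSO replicate 1 or 2 or BSJ-03-123 replicate 1 or 3 (0.17 to 0.21).

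At an adjusted p under 0.05 in the edgeR fit, 2 of the 4 members were higher and 1 lower with YKL-06-102 than with DMSO, where 15.6% of all tested genes were called higher and 21.3% lower. With BSJ-03-123, 4 were higher and 0 lower, against 12.4% and 15.7% of all tested genes. With Palbociclib, 4 were higher and 0 lower, against 15.6% and 17.6% of all tested genes. These shares are given as context only, since the members were chosen on these data, and the 3 comparisons share the DMSO libraries. The share of calls that were higher was 42.2%, 44.1% and 47% for the compounds in that order, and 54.3%, 61.8% and 63.5% when counts were scaled by library totals.

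Summed over the 7 members, the cluster gave 52.7 ± 1.67 CPM with YKL-06-102, 58.4 ± 0.812 with BSJ-03-123, 61.6 ± 1.21 with Palbociclib and 47.8 ± 0.418 with DMSO (SD, n = 3 each). The sum was thus above DMSO with every compound, including the one with which GIMAP1 was lower. Within the cluster, GIMAP1 made up 3.77%, 4.03% and 3.65% of all GIMAP counts with YKL-06-102, 8.72%, 12.6% and 11.4% with BSJ-03-123, 10.6%, 10.5% and 10.5% with Palbociclib, and 9.57%, 9.12% and 7.8% with DMSO. The exact 95% binomial intervals of the YKL-06-102 libraries reached at most 5.26%, and those of the other libraries began at 6.11% or above. The intervals cover counting error only.

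**Figure D2:**
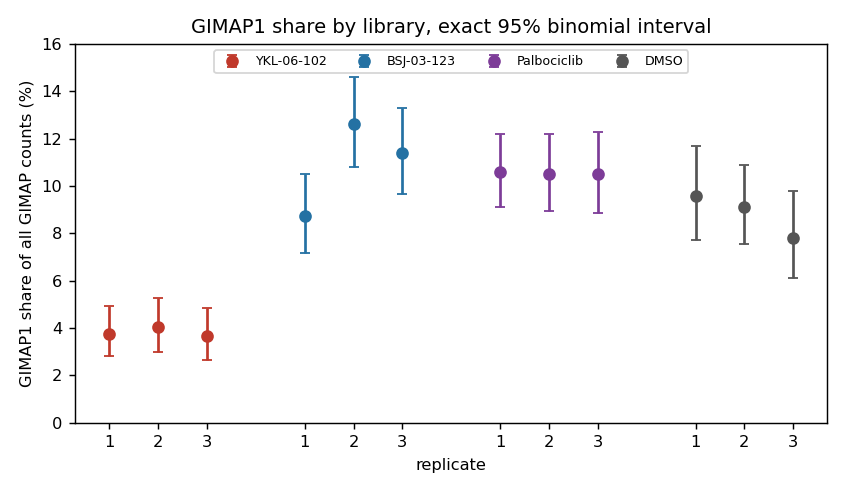
Share of all GIMAP counts that fell on GIMAP1 (vertical axis, percent, from 0) in each library (horizontal axis, replicates within group), with exact 95% binomial intervals. The 3 YKL-06-102 libraries lie near 4%, and all other libraries lie between 7.8% and 12.6%.

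Over the 12 libraries, GIMAP6 and GIMAP2 had a Pearson correlation of log2 CPM of 0.78, GIMAP8 and GIMAP2 of 0.77, and GIMAP8 and GIMAP6 of 0.65. GIMAP1 correlated at 0.59 with GIMAP8, 0.23 with GIMAP2 and -0.14 with GIMAP6. These values are descriptive, since the libraries fall into 4 treatment groups and share their scaling.

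The compounds were then set against each other at the same dose and time. GIMAP1 was 3.23-fold lower with YKL-06-102 than with Palbociclib (log2 difference -1.69 ± 0.15, 95% interval -2.00 to -1.38) and 3.17-fold lower than with BSJ-03-123 (-1.66 ± 0.15, 95% interval -1.97 to -1.35). It was number 13 from the bottom of 14214 genes in both comparisons, which share the YKL-06-102 libraries. Between BSJ-03-123 and Palbociclib the GIMAP1 difference was -0.03 ± 0.11, with an interval of -0.26 to 0.21 that still allows modest differences either way.

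GIMAP8 showed the same order of compounds with smaller differences. It was 1.25-fold lower with YKL-06-102 than with Palbociclib (-0.32 ± 0.065) and 1.16-fold lower than with BSJ-03-123 (-0.21 ± 0.067), and the groups did not overlap. The call against BSJ-03-123 was lost when any 1 of the YKL-06-102 libraries, BSJ-03-123 replicate 1 or BSJ-03-123 replicate 2 was left out (-0.21 to -0.17). For GIMAP6, the difference between YKL-06-102 and Palbociclib was 0.005, with an interval of -0.11 to 0.12, and that between YKL-06-102 and BSJ-03-123 was 0.08 (-0.04 to 0.20). For GIMAP2 the corresponding differences were -0.10 (-0.24 to 0.04) and -0.03 (-0.17 to 0.11).

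Between BSJ-03-123 and Palbociclib the intervals were -0.24 to 0.03 for GIMAP8, -0.20 to 0.05 for GIMAP6 and -0.21 to 0.07 for GIMAP2. By the edgeR fit, 0 members were higher and 2 lower with YKL-06-102 than with Palbociclib (12.7% and 11.9% of all tested genes), and 0 were higher and 2 lower than with BSJ-03-123 (10.4% and 9.74%). No member was called between BSJ-03-123 and Palbociclib, and 0 members had an unadjusted p under 0.05 there. In that comparison edgeR called 0.155% of all tested genes higher and 0% lower, 681 and 517 genes had an unadjusted p under 0.05 in the higher and lower direction, and DESeq2 called 38 higher and 5 lower. A p that misses the threshold does not show that the compounds act alike.

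The neighbours of the cluster were chosen by position alone, as every gene within 500 kb of its outer ends. Of 43 such genes, 19 passed the filter. Of these, 3 were called higher and 3 lower with YKL-06-102, 2 and 2 with BSJ-03-123, and 3 and 3 with Palbociclib, each against DMSO, where 15.6% of all tested genes were called higher and 21.3% lower with YKL-06-102, 12.4% and 15.7% with BSJ-03-123, and 15.6% and 17.6% with Palbociclib. The neighbours' counts lie near these shares. Their median log2 differences were 0.067, 0.029 and 0.041, beside -0.017, 0.008 and 0.014 over all tested genes. The nearest tested gene beyond GIMAP5, TMEM176B, lies 41.25 kb away and averaged 1.3 ± 0.151 CPM with YKL-06-102, 1.71 ± 0.0833 with BSJ-03-123, 1.54 ± 0.191 with Palbociclib and 1.72 ± 0.381 with DMSO. Its log2 difference from DMSO was -0.37 with YKL-06-102 (95% interval -0.80 to 0.05), 0.02 with BSJ-03-123 and -0.14 with Palbociclib. TMEM176B passed the threshold in none of the 6 comparisons, with edgeR adjusted p between 0.168 and 0.965.

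On the other side, the nearest tested gene was LINC00996, a long noncoding RNA on the plus strand at chr7:150433654-150448140 that ends 2.49 kb before GIMAP8. It had 23.2, 23.4 and 26.4 CPM with YKL-06-102, 32.5, 31.7 and 36.7 with BSJ-03-123, 37.5, 34.5 and 37.5 with Palbociclib, and 31.3, 27 and 31.6 with DMSO. The YKL-06-102 libraries all lay below the DMSO libraries and the Palbociclib and BSJ-03-123 libraries all lay above them. The log2 difference from DMSO was -0.29 ± 0.069 with YKL-06-102 (edgeR adjusted p = 0.00117), 0.17 ± 0.067 with BSJ-03-123 (0.0526, not past the threshold) and 0.29 ± 0.065 with Palbociclib (0.000791).

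Between compounds, 1 of the 19 tested neighbours was called higher and 1 lower with YKL-06-102 than with Palbociclib, and likewise than with BSJ-03-123. Of all tested genes, 12.7% were higher and 11.9% lower against Palbociclib, and 10.4% and 9.74% against BSJ-03-123. LINC00996 was lower with YKL-06-102 than with Palbociclib (-0.59 ± 0.066, edgeR adjusted p = 6.15e-08) and than with BSJ-03-123 (-0.47 ± 0.067, 5.72e-06). It thus took the same directions as GIMAP1, which lies at the opposite end of the cluster, while GIMAP8, GIMAP6 and GIMAP2 between them did not fall with YKL-06-102. Its BSJ-03-123 difference passed the threshold without DMSO replicate 1 (0.20), without DMSO replicate 3 (0.21) and without BSJ-03-123 replicate 2 (0.21), and was 0.09 without DMSO replicate 2.

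Farther away, 5 protein-coding neighbours were called against DMSO. CDK5, a kinase best known from neurons, was higher with every compound (0.27, 0.23 and 0.26 for YKL-06-102, BSJ-03-123 and Palbociclib), as was CHPF2, a chondroitin-synthesis enzyme (0.17, 0.18 and 0.20). SLC4A2, an anion exchanger, was lower with every compound (-0.14, -0.19 and -0.24), as was TMUB1, a ubiquitin-like membrane protein (-0.27, -0.32 and -0.27). CDK5 overlaps SLC4A2 and CHPF2 overlaps SMARCD3 on opposite strands, and the strand setting of the counting is not given, so their counts are uncertain. Without DMSO replicate 2, SLC4A2 (-0.07) and TMUB1 (-0.13) no longer passed the threshold with YKL-06-102. CDK5 did not pass with BSJ-03-123 without DMSO replicate 3 (0.18) or BSJ-03-123 replicate 1 (0.21). AGAP3, a GTPase-activating protein of Arf proteins, was higher with YKL-06-102 (0.14 ± 0.037, edgeR adjusted p = 0.00369), lower with Palbociclib (-0.15 ± 0.038, 0.0025) and not past the threshold with BSJ-03-123 (-0.07 ± 0.038).

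**Figure D3:**
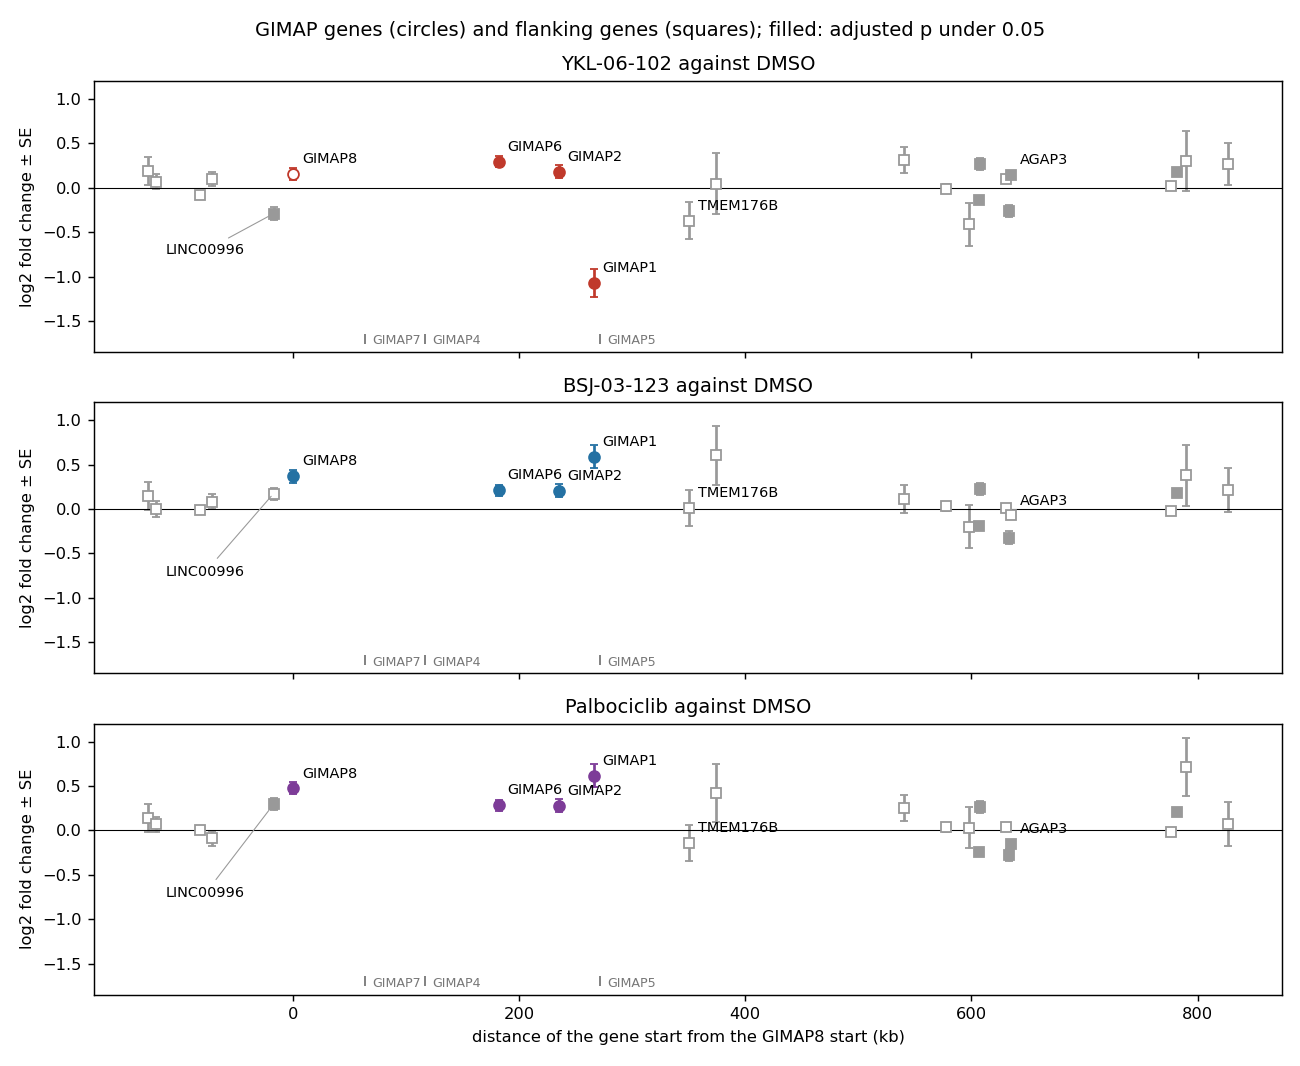
Log2 difference from DMSO with its SE (vertical axis) by distance of each gene's start from that of GIMAP8 (horizontal axis, kb), for GIMAP genes (coloured circles) and flanking genes (grey squares), with filled symbols at an adjusted p under 0.05 and ticks for the members that did not pass the filter. In the YKL-06-102 panel GIMAP1 (-1.07) and LINC00996 (-0.29) lie below 0, while GIMAP8, GIMAP6 and GIMAP2 lie above it. Other flanking genes lie below 0 there too, among them TMUB1 (-0.27), SLC4A2 (-0.14) and TMEM176B (-0.37, not past the threshold).

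Markers of lymphocytes and endothelium, cell types in which GIMAP genes are usually high, were mostly under 1 CPM, with 4 exceptions. The lymphoid genes CD2, CD8B, LCK and MS4A1 had no count in any library, and 2 of 22 lymphoid markers reached a mean of 1 CPM, NKG7 and PAX5. NKG7, a protein of cytotoxic granules, averaged 53.2 ± 2.37 CPM with YKL-06-102, 48.8 ± 1.77 with BSJ-03-123, 47.3 ± 2.11 with Palbociclib and 47.1 ± 4.11 with DMSO. It was called higher with YKL-06-102 (0.17 ± 0.053, edgeR adjusted p = 0.0126), although the YKL-06-102 and DMSO libraries overlapped. Summed lymphoid levels were 57 to 61.7 CPM with YKL-06-102, 54.2 to 57.5 with BSJ-03-123, 53 to 57.1 with Palbociclib and 51.7 to 59.1 with DMSO. Of the 8 tested lymphoid markers, 1 rose and 1 fell with YKL-06-102, 0 and 0 with BSJ-03-123, and 0 and 1 with Palbociclib, with median log2 differences of 0.04, 0.06 and 0.10. Over all tested genes the shares called higher and lower were 15.6% and 21.3% with YKL-06-102, 12.4% and 15.7% with BSJ-03-123, and 15.6% and 17.6% with Palbociclib. Of 10 endothelial markers, 2 reached 1 CPM, PECAM1 at 118 to 153 CPM and EGFL7 at 26 to 33.5 CPM, and KDR and TEK had no count.

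Endothelial sums were 150 to 155 CPM with YKL-06-102, 171 to 176 with BSJ-03-123, 176 to 181 with Palbociclib and 163 to 171 with DMSO. Of the 2 tested, 0 rose and 1 fell with YKL-06-102, 0 and 0 with BSJ-03-123, and 1 and 0 with Palbociclib, with medians of -0.09, 0.02 and 0.03. The calls were those of PECAM1, an adhesion molecule also carried by myeloid cells, which fell by 0.17 ± 0.034 on the log2 scale with YKL-06-102 (edgeR adjusted p = 0.000227) and rose by 0.13 ± 0.034 with Palbociclib (0.00357). PAX5, a B-cell transcription factor, averaged 1.87 ± 0.443 CPM with YKL-06-102, 3.1 ± 0.249 with BSJ-03-123, 2.85 ± 0.128 with Palbociclib and 3.89 ± 0.213 with DMSO, and fell with YKL-06-102 (-1.05 ± 0.16, edgeR adjusted p = 3.8e-06) and with Palbociclib (-0.45 ± 0.15, 0.0193). The part of NKG7, PAX5 and PECAM1 in the GIMAP1 result was not tested. In bulk RNA of this single line, fewer cells carrying a transcript and less of it per cell cannot be told apart.

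Of 16 myeloid markers, 14 reached 1 CPM. Their summed level was 4940 to 4990 CPM with YKL-06-102, 4310 to 4400 with BSJ-03-123, 4330 to 4420 with Palbociclib and 3990 to 4220 with DMSO. Of the 15 tested, 11 rose with YKL-06-102, 6 with BSJ-03-123 and 6 with Palbociclib, and 0 fell with any compound, with medians of 0.18, 0.08 and 0.08, beside 15.6%, 12.4% and 15.6% of all tested genes called higher. With DMSO replicate 2 left out, 8 rose with BSJ-03-123 and 7 with Palbociclib, beside 12.3% and 14.7% of all tested genes. CSF1R, the M-CSF receptor, rose with all compounds (1.19, 0.55 and 0.51), and SPI1, the myeloid regulator PU.1, passed the threshold with YKL-06-102 (0.47) and had 0.08 with each of the others. The myeloid sum moved with all 3 compounds, and its part in the GIMAP values was not tested.

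Among 14 tested genes with reported links to GIMAP proteins, direct or not, GABARAPL1 and MAP1LC3B, proteins of autophagosome formation, rose with every compound. GABARAPL1 rose by 0.54, 0.27 and 0.35 and MAP1LC3B by 0.31, 0.23 and 0.24 with YKL-06-102, BSJ-03-123 and Palbociclib. GABARAPL2 passed the threshold with Palbociclib (0.17) and had 0.06 with each of the other compounds. Of the survival genes, BCL2 rose with BSJ-03-123 and Palbociclib (0.14 and 0.13) and had -0.07 with YKL-06-102, and its antagonist BAX fell with the same pair (-0.19 and -0.16). With YKL-06-102 the antiapoptotic genes MCL1 (0.14) and BCL2L1 (0.21) rose, and so did the proapoptotic genes BCL2L11 (0.177) and BAK1 (0.155). The proapoptotic gene BAD fell with it (-0.23). In all, 6 rose and 1 fell with YKL-06-102, 3 and 1 with BSJ-03-123, and 5 and 1 with Palbociclib, with medians of 0.03, 0.05 and 0.10, where 15.6% of all tested genes were called higher and 21.3% lower with YKL-06-102, 12.4% and 15.7% with BSJ-03-123, and 15.6% and 17.6% with Palbociclib. Without DMSO replicate 2, 6 rose and 0 fell with YKL-06-102, where 19.2% of all tested genes were called higher and 19.7% lower.

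Of 16 tested genes linked to FOXO and KLF2 factors and to quiescence, 8 rose and 2 fell with YKL-06-102, 8 and 2 with BSJ-03-123, and 8 and 1 with Palbociclib, where 15.6% of all tested genes were called higher and 21.3% lower with YKL-06-102, 12.4% and 15.7% with BSJ-03-123, and 15.6% and 17.6% with Palbociclib. Without DMSO replicate 2, 9 rose and 1 fell with YKL-06-102, where 19.2% of all tested genes were called higher and 19.7% lower. The medians were 0.22, 0.22 and 0.32. IL7R, the interleukin-7 receptor, rose by 2.63 ± 0.11 with YKL-06-102, 1.21 ± 0.12 with BSJ-03-123 and 0.58 ± 0.13 with Palbociclib, an order of compounds unlike that of GIMAP1. TXNIP, a regulator of glucose uptake, rose by 0.36, 0.41 and 0.52, and the antiproliferative gene TOB1 by 0.33, 0.24 and 0.30. Of the genes that fell, BTG1, also antiproliferative, had -0.264 with YKL-06-102 and -0.213 with BSJ-03-123. It did not pass the threshold with Palbociclib (-0.113). IRS2 fell with every compound (-0.255, -0.365 and -0.361).

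Of 8 tested genes of other immune GTPase families, 2 rose and 2 fell with YKL-06-102, 2 and 0 with BSJ-03-123, and 3 and 0 with Palbociclib, with medians of 0.07, 0.17 and 0.22, where 15.6% of all tested genes were called higher and 21.3% lower with YKL-06-102, 12.4% and 15.7% with BSJ-03-123, and 15.6% and 17.6% with Palbociclib. Without DMSO replicate 2, 1 rose and 2 fell with YKL-06-102, where 19.2% of all tested genes were called higher and 19.7% lower. With Palbociclib 2 rose and 0 fell in that fit, against 14.7% and 17.3% of all tested genes. IRGQ, a GTPase-like protein with a role in autophagy, was lower with YKL-06-102 (-0.23 ± 0.060) and higher with BSJ-03-123 (0.21 ± 0.059) and Palbociclib (0.18 ± 0.058), the directions also seen for GIMAP1. IRGM, an immunity-related GTPase, fell with YKL-06-102 (-1.10 ± 0.29), at 0.594 ± 0.158 CPM against 1.3 ± 0.193 CPM with DMSO. MX2, an interferon-induced antiviral protein, rose with all compounds (0.17, 0.24 and 0.23), and GBP4 passed the threshold with YKL-06-102 (0.36).

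Of 20 tested blood-lineage regulators, 4 rose and 6 fell with YKL-06-102, 5 and 2 with BSJ-03-123, and 2 and 4 with Palbociclib, with medians of -0.02, 0.05 and 0.01, where 15.6% of all tested genes were called higher and 21.3% lower with YKL-06-102, 12.4% and 15.7% with BSJ-03-123, and 15.6% and 17.6% with Palbociclib. Without DMSO replicate 2, 4 rose and 5 fell with YKL-06-102, 2 and 2 with BSJ-03-123, and 1 and 4 with Palbociclib. The shares of all tested genes called higher and lower were then 19.2% and 19.7%, 12.3% and 16.1%, and 14.7% and 17.3%. CBFB, the partner of RUNX proteins, fell with every compound (-0.25, -0.22 and -0.26), and LMO2 rose with every compound (0.23, 0.10 and 0.15). IKZF1, a regulator of lymphoid development, rose with YKL-06-102 (0.20) and fell with Palbociclib (-0.11). NOTCH1, a receptor that directs T-cell fate, fell with YKL-06-102 (-0.25). Medians of all tested genes were -0.017, 0.008 and 0.014 for the compounds in the same order.

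The genes whose log2 CPM tracked the mean of the 4 members most closely over the 12 libraries, out of 10335 candidates, were TRAF3IP3 (Pearson r 0.973), PTK2B (0.972), IKBKE (0.972), RAB37 (0.971), RASAL3 (0.969), WIPF1 (0.968), SNX20 (0.965) and C11orf21 (0.965). They encode an adaptor of TRAF3, the kinase PYK2, the kinase IKK-epsilon, a small GTPase and a Ras GTPase-activating protein, among others. TRAF3IP3 had log2 differences from DMSO of -0.02 with YKL-06-102, 0.36 with BSJ-03-123 and 0.48 with Palbociclib. IKBKE had -0.20, 0.37 and 0.38, and RAB37 had -0.26, 0.42 and 0.53. Each member was centred on its own mean, so GIMAP1, with the widest differences, weighs most in this profile. With YKL-06-102, GIMAP8, GIMAP6 and GIMAP2 lay above DMSO (0.16, 0.29 and 0.18), which TRAF3IP3, IKBKE and RAB37 did not. The likeness rests on libraries that share the 4 treatment groups and their scaling.

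GIMAP6, the member with the highest CPM, had TSPAN31 (0.959), PNRC1 (0.955), SAT1 (0.951) and ROGDI (0.947) among the genes that followed it most closely. TSPAN31, a tetraspanin that overlaps CDK4 on the opposite strand and whose counts are uncertain for that reason, was higher with YKL-06-102 (0.65), BSJ-03-123 (0.41) and Palbociclib (0.59). For GIMAP1, in a list drawn up after its values were seen, the nearest were ARRB1 (0.983), AC011893.1 (0.980), PTAFR (0.973), SIDT2 (0.972) and INPPL1 (0.971). SIDT2, a lysosomal membrane protein, had -0.73 with YKL-06-102, 0.20 with BSJ-03-123 and 0.27 with Palbociclib, and PTAFR, the receptor of platelet-activating factor, had -0.65, 0.15 and 0.24.

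**Figure D4:**
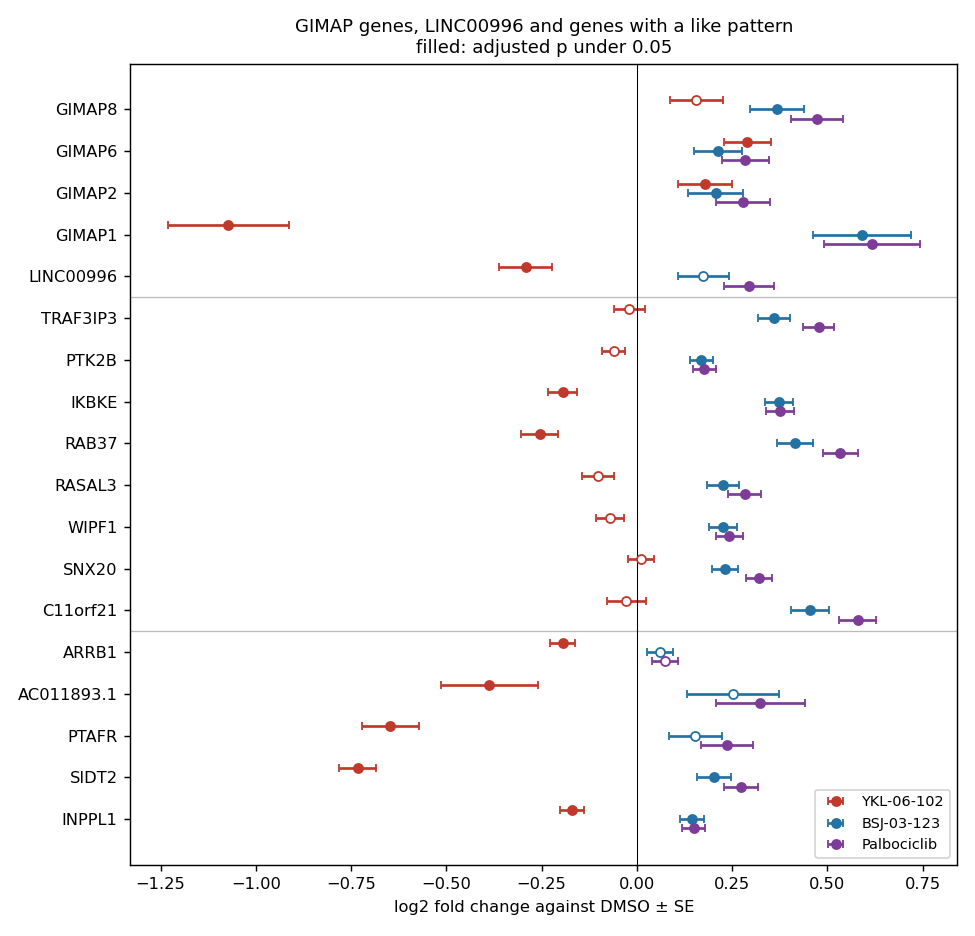
Log2 difference from DMSO with its SE (horizontal axis) for the expressed GIMAP genes and LINC00996 (top), the 8 genes most like the members' mean (middle) and the 5 most like GIMAP1 (bottom), with filled symbols at an adjusted p under 0.05. GIMAP1 has the lowest YKL-06-102 value shown, -1.07, and SIDT2 follows at -0.73.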

How the data were processed

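The authors deposited whole-number counts for each Ensembl gene in each of the 12 libraries, without scaling. The tools named in the submitters' processing notes are Trimmomatic 0.36, STAR 2.5.2b and HTSeq, with genome build hg38. Per the labels' protocols, polyadenylated RNA was prepared with a stranded kit. Annotation release, strand setting and HTSeq version: not given in the sources used here.

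Genes were named with GENCODE 29 (57447 of 58051). With filterByExpr (minimum count 10, minimum total 15), 14214 genes were kept and held 99.9% of counts. All 12 libraries were fitted together in edgeR 4.0.16 (R 4.3.3; TMM, quasi-likelihood, 8 residual degrees of freedom), with 6 contrasts and Benjamini-Hochberg adjustment over all tested genes. A gene was called at an adjusted p under 0.05. SE and 95% intervals are Wald values. CPM used TMM factors, and RPKM divides CPM by exon bases not shared on the same strand. Alternatives were other scalings, no filter, DESeq2 1.42.0, limma-voom 3.58.1, fits of 2 groups, a replicate block and leaving out each library. The fit was checked on simulated counts.

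The members and the 7 gene lists were chosen with earlier results of these data known. Named were all members, called flanking genes and the nearest on either side, CDK6 and IL7R. Also named were the called list genes of smallest p (up to 4 per list and contrast) and the most like genes. GABARAPL2, BCL2L11, BAK1, BAD, BTG1, IRS2 and REPIN1 were added after their values were seen. Some genes that these rules would name are not reported here. Promoter sequences are from RefSeq (GRCh38.p14).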

Additional observations from a re-analysis of the deposited data

Results flagged for a closer look

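GIMAP1 differed between compounds in direction relative to DMSO. It was lower than DMSO with YKL-06-102 and higher with Palbociclib and BSJ-03-123, and the direct log2 difference was -1.69 for YKL-06-102 against Palbociclib and -1.66 for YKL-06-102 against BSJ-03-123. Since GIMAP1 was among the genes chosen on these data, these values are a description.

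Of the 19 tested neighbours chosen by position, 1 was called higher and 1 lower with YKL-06-102 than with Palbociclib. Of all tested genes, 12.7% were called higher and 11.9% lower there, so the neighbours did not exceed these shares. LINC00996 was the lower neighbour and had the directions of GIMAP1, with a log2 difference of -0.59 for YKL-06-102 against Palbociclib. AGAP3 differed in the opposite way, with 0.29 for YKL-06-102 against Palbociclib. Both differences passed the edgeR threshold directly, and both comparisons against DMSO share the same DMSO libraries. No test for a single outlying value was made within groups of 3 libraries.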

How the results depend on the processing

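Of 78 alternative values for each expressed member over 6 comparisons, 77 kept direction and side of the threshold for GIMAP1, 74 for GIMAP6, 69 for GIMAP8 and 61 for GIMAP2. Leaving out a library gave -1.151 to -0.998 for GIMAP1 with YKL-06-102 against DMSO. The number of members called for YKL-06-102 against BSJ-03-123 was 1 in place of 2 with no filter and with DESeq2, and 1 to 2 when a library was left out. Over all 14214 tested genes, 1476 were called higher and 1385 lower there, and 1332 and 977 with DESeq2. With no filter the calls were 1604 and 1040 of 28826 genes. Leaving out a library gave 1251 to 1528 higher and 795 to 1022 lower. For BSJ-03-123 against DMSO the number of members called was 2 to 4 when a library was left out, with 2 without DMSO replicate 1 or BSJ-03-123 replicate 1. Calls over all genes fell there too, from 1763 higher and 2234 lower of 14214. They were 1361 and 2090 of 14529 without DMSO replicate 1, and 1439 and 2046 of 14521 without BSJ-03-123 replicate 1. With only the 2 groups fitted, 4 flanking genes in place of 2 were called for YKL-06-102 against Palbociclib. Over all genes that fit called 2313 higher and 1997 lower of 14008, in place of 1812 and 1695 of 14214. The causes were not tested.

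Reversals of sign were seen for differences near 0 that passed in no setting: GIMAP6 for YKL-06-102 against Palbociclib (-0.005 with library totals, -0.003 to 0.057 over left-out libraries), GIMAP1 for BSJ-03-123 against Palbociclib (-0.135 to 0.103, positive without BSJ-03-123 replicate 1) and GIMAP2 for YKL-06-102 against BSJ-03-123 (-0.074 to 0.049, positive at 0.018 and 0.006 without BSJ-03-123 replicates 1 and 3 and at 0.049 without YKL-06-102 replicate 3).

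GIMAP2 with YKL-06-102 against DMSO also lost its call with DESeq2 (0.190) and limma-voom (0.178), and with BSJ-03-123 with DESeq2 (0.207) and in the fit of 2 groups (0.205). GIMAP8 for YKL-06-102 against BSJ-03-123 lost its call with no filter (-0.196) and DESeq2 (-0.202). LINC00996 with BSJ-03-123 against DMSO, followed through the alternatives after its values were seen, passed with library totals (0.218), DESeq2 size factors (0.175), no filter (0.186) and the replicate block (0.168). CDK5, CHPF2, SLC4A2 and TMUB1 were also followed against DMSO after their values were seen. Over all genes, BSJ-03-123 against Palbociclib had 22 higher and 0 lower calls, 42 and 22 with no filter, 61 and 14 in the fit of 2 groups, 38 and 5 with DESeq2, and 3 to 13 higher with a library left out.

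Replicate numbers did not pair the samples across all groups. Same-numbered libraries of BSJ-03-123 and DMSO correlated in their deviations at 0.086, 0.23 and 0.2, and 6 of 6 samples correlated best with their own number. Whether these groups were paired is not known, since the labels state no pairing. In the other comparisons at most 2 of 6 samples correlated best with their own number. With the replicate block, GIMAP2 with YKL-06-102 against DMSO was 0.179 with an edgeR adjusted p of 0.0572 (0.0512 to 0.11 over the other alternatives in which the call was lost), and no other member's call changed. Depth limits GIMAP5, GIMAP4 and GIMAP7, which had too few counts to compare.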
